A study of Mus musculus with 6 samples.

Results

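Ptprc, Spn, Cd24a and Enpep encode the surface proteins by which the Hardy scheme sorts early B cells of mouse marrow, Bst1 encodes another surface protein of these cells, and the transcripts of these 5 genes were followed across a study of Ikaros mutants. They were picked by name from 22098 gene symbols, each as the RefSeq transcript with the highest mean, and all 5 were found, as 6 of the 26531 transcripts measured. RNA sequencing covered sorted proB cells from bone marrow of C57BL/6 mice aged 6 to 7 weeks, with 6 libraries, 1 for each combination of 3 genotypes and 2 fractions. The genotypes were Ikaros_ZnF4-/- (called ZnF4), Ikaros_ZnF1-/- (called ZnF1) and wt, and the fractions were C with C' (fraction C below) and B. The alleles affect single zinc fingers of the DNA-binding domain of Ikaros, a lymphocyte transcription factor encoded by Ikzf1. The labels give no count of animals per library, no promoter or Cre and no antibodies, so which of the 5 proteins the sort used is not given in the sources used here. Every value is an RPKM, a number of reads scaled to transcript length and library size, so levels of different genes can be set side by side.

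In the Hardy scheme, B-lineage cells of mouse marrow are first gated on B220, a form of the phosphatase CD45 that Ptprc encodes, and on CD43, the mucin-like sialoglycoprotein that Spn encodes. Within that gate the heat-stable antigen, a short GPI-anchored glycoprotein from Cd24a, separates the earliest cells from fractions B and C, and BP-1, the glutamyl aminopeptidase from Enpep, separates fraction C from fraction B. Fraction C' is the subset of BP-1-positive cells with the highest heat-stable antigen. Bst1 encodes BP-3 (CD157), a GPI-anchored ectoenzyme of the CD38 family found on early B cells, stroma and myeloid cells. The gates read proteins, while the values here are transcripts, and RPKM of a Ptprc transcript does not resolve the B220 form.

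The promoter of Enpep is shown because this gene carried the difference between the fractions, and that of Spn because its RPKM was lowest in ZnF4 and highest in ZnF1 in fraction B. RefSeq windows of 250 bases before to 50 bases after the start site (build GRCm38.p6) matched 3 of the 5 genes, Ptprc, Enpep and Spn. Cd24a and Bst1 had no window. Capitals mark CANNTG, an E-box, TATAAA and GGGAA, the core that Ikaros reads, on either strand.
Enpep, chr3:129332700-129332999, minus strand: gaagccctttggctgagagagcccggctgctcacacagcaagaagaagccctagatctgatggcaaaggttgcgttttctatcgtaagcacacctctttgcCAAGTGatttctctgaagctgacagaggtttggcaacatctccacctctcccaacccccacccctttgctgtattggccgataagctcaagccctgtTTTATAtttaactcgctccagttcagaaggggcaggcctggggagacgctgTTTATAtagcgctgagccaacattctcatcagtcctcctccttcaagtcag
Spn, chr7:127137774-127138073, minus strand: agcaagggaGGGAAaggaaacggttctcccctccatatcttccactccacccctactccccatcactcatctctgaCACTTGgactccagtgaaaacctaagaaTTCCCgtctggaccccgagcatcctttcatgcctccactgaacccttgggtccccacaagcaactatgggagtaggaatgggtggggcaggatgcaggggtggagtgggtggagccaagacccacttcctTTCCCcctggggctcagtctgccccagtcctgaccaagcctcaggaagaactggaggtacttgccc
The Enpep window held 1 E-box, 149 bases before the start site, and 2 matches to TATAAA. Spn held 1 E-box and 3 matches to GGGAA, a pentamer found in 62.7% of all 32851 windows. E-boxes were in 72.3% of all windows and TATAAA in 13.6%. TGGGAA, a longer Ikaros core that contains GGGAA, was in 25.6% of windows and CAGGTG, the E2A form of the E-box, in 20.2%. A palindromic EBF1 motif was in 0.904%. These 3 were in no window of Enpep, Spn or Ptprc, which says only that the letters are not in these windows.

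Ikzf1 stood at 425.1 RPKM in ZnF4, 154.1 in ZnF1 and 169.4 in wt in fraction C, and at 431.6, 181.5 and 150.3 in those genotypes in fraction B. A level over the whole transcript does not check the loss of a single finger. The libraries held B-lineage RNA throughout. The summed level of 10 B-lineage markers, Pax5 and Ebf1 among them, was 4755.1 RPKM in ZnF4, 2102.6 in ZnF1 and 2888.2 in wt in fraction C, and 5122.8 in ZnF4, 4932.9 in ZnF1 and 3450.3 in wt in fraction B. One library stood apart. The summed level of 18 granulocyte and monocyte markers was 44136.3 RPKM in the fraction C library of ZnF1, and between 1045.6 (ZnF4, fraction B) and 3924.3 (wt, fraction B) in the other 5. For 12 erythroid markers it was 4447.7 RPKM in that library, and 178.2 to 397.6 in the others. Ly6c1 was the granulocyte and monocyte marker listed at 0 in any library, and no erythroid marker was. Both wt libraries held Xist, at 91.9 RPKM in fraction C and 81.3 in fraction B, and all 4 mutant libraries listed it at 0 and held the Y-linked Eif2s3y, so sex and genotype cannot be told apart when a mutant is set against wt.

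**Figure D1:**
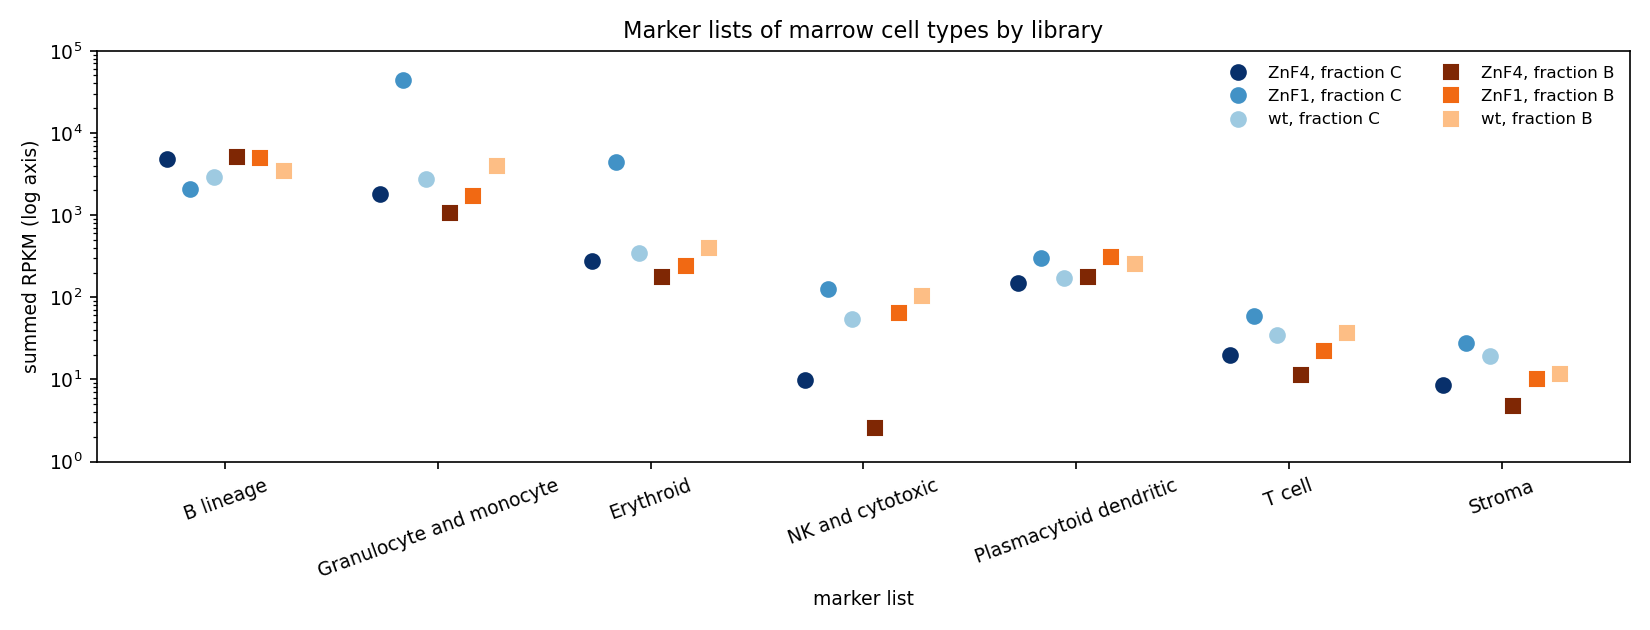
Summed RPKM (log axis) of marker lists of marrow cell types, 1 point per library, circles for fraction C and squares for fraction B. The ZnF1 library of fraction C stood at 44136.3 for granulocyte and monocyte markers and 4447.7 for erythroid markers, above the other 5.

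Enpep, the gene of the marker on which fractions B and C part, was high in every fraction C library and low in every fraction B library. Enpep stood at 43.1 RPKM in fraction C and 1.1 RPKM in fraction B of ZnF4. In ZnF1 the levels were 20.2 RPKM in fraction C and 2.3 RPKM in fraction B. In wt they were 56.6 RPKM in fraction C and 3.5 RPKM in fraction B. The fractions thus did not overlap, the lowest fraction C library (ZnF1) being above the highest fraction B library (wt). How many of all genes part in this way was not counted. Taken as differences of log2(RPKM + 1), the scale of every fold below, the step was 21.0-fold in ZnF4, 6.42-fold in ZnF1 and 12.8-fold in wt. Among the 10943 genes that averaged 1 RPKM or more, Enpep had the highest fold from B to C in both ZnF4 and wt, and in ZnF1 the fold ranked 350. The ZnF1 pair had 1101 genes at least 2-fold higher in fraction C (10.1%), against 302 (2.76%) in ZnF4 and 37 (0.338%) in wt. BP-1 parts these fractions in the Hardy scheme, so if the sort used it, the step of Enpep describes the gate and is no independent finding.

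At least 2-fold higher in fraction C in all 3 genotypes were 3 of 10943 genes (0.0274%), Enpep, the small nucleolar RNA Snord45b and the metallothionein Mt1. Fitted over the 6 libraries with genotype and fraction as terms (limma), the step of Enpep was log2 3.58 (SE 0.36). Of all genes it had the smallest p-value (0.00032), yet after Benjamini-Hochberg adjustment over 10943 genes its adjusted p was 0.854 in limma, and 0 genes passed 0.05 (0%; 511 had an unadjusted p under 0.05). With the fraction C library of ZnF1 left out, the limma estimate was log2 4.04. That fit leaves 1 library of ZnF1, so no p-value is given for it. Over all alternatives the estimate ran from log2 3.18 to 4.04, and in none did its adjusted p pass 0.05. With 2 residual degrees of freedom the fit over the 6 libraries measures only how the step varies between these libraries, which may each come from 1 or from several animals.

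**Figure D2:**
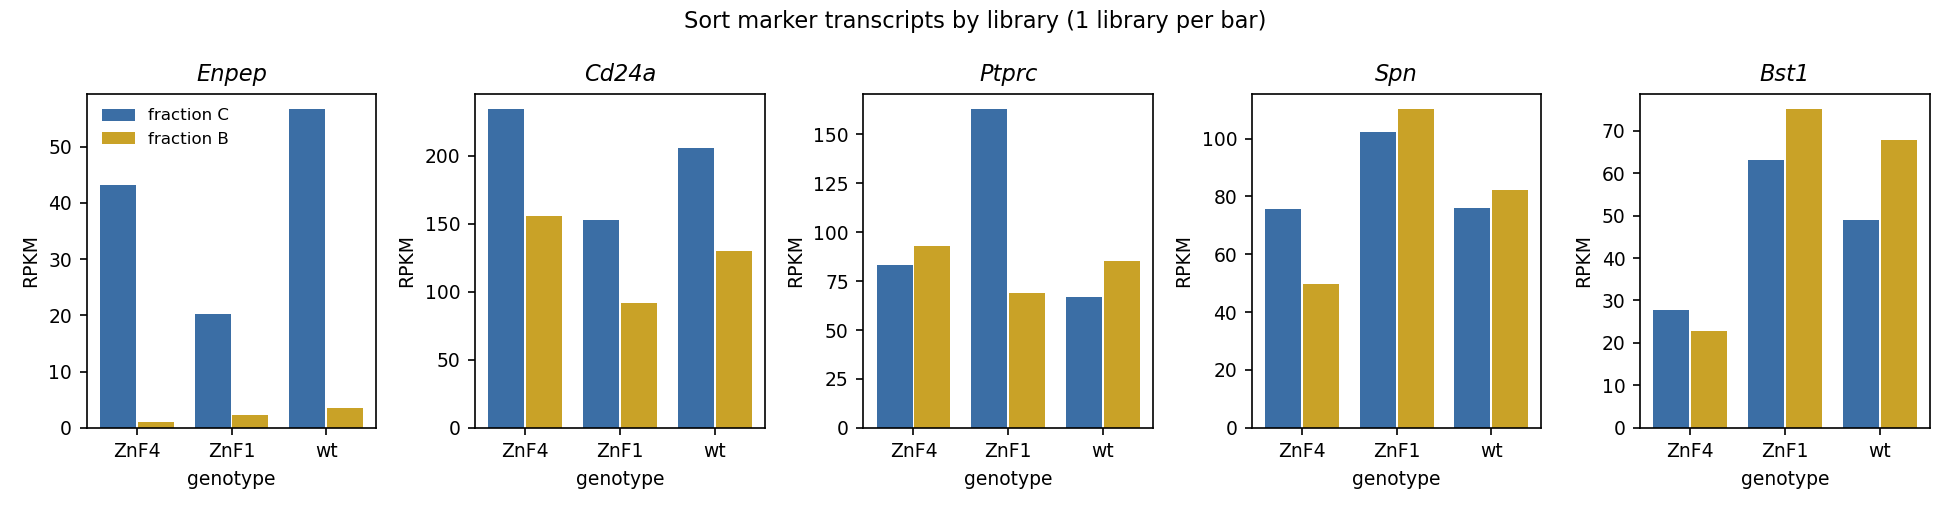
RPKM of the 5 genes, 1 bar per library, in fraction C (blue) and fraction B (yellow) of ZnF4, ZnF1 and wt. Enpep was at 20.2 to 56.6 RPKM in fraction C and at 1.1 to 3.5 in fraction B, while the other 4 genes were within 3.29-fold over the libraries.

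Between genotypes, Enpep was lower in both mutants than in wt in each fraction. In fraction C it was 1.31-fold lower in ZnF4 and 2.72-fold lower in ZnF1 than in wt, and in fraction B it was 2.14-fold lower in ZnF4 and 1.36-fold lower in ZnF1. Set against wt, limma gave log2 -0.74 (SE 0.44) for ZnF4 and -0.94 (SE 0.44) for ZnF1, with adjusted p of 0.44 and 0.537. With the fraction B library of ZnF1 left out, so that ZnF1 had 1 library, ZnF1 against wt was at log2 -1.62. Over all alternatives that estimate ran from log2 -1.62 to -0.27. The ZnF1 library of fraction C was also the one with granulocyte and erythroid RNA and the least B-lineage RNA. In percent of the geometric mean of 8 B-lineage genes in the same library, Enpep stood at 18.4% in ZnF4, 20.3% in ZnF1 and 34.2% in wt in fraction C, and at 0.375%, 1.06% and 1.81% in those genotypes in fraction B. Scaled in this way, the difference between ZnF1 and wt in fraction C was log2 -0.74, under 2-fold, and Enpep in ZnF4 over ZnF1 there stood at log2 -0.14 (0.89 on median of ratios), against 1.06 for RPKM as deposited. In a bulk sample, fewer BP-1-positive cells and less Enpep RNA per cell cannot be told apart.

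Cd24a, the gene of the heat-stable antigen, had the highest level of the 5 genes in every library except the ZnF1 library of fraction C and that of fraction B. It stood at 234.1 RPKM in fraction C and 155.7 in fraction B of ZnF4, at 152.9 in fraction C and 91.7 in fraction B of ZnF1, and at 205.6 in fraction C and 130.1 in fraction B of wt. Fraction C was thus higher in each genotype, by 1.5-fold in ZnF4, 1.66-fold in ZnF1 and 1.58-fold in wt, although the fractions overlapped across genotypes. The log2 step differed from that of wt by -0.07 in ZnF4 and 0.075 in ZnF1, a narrower range over the 3 genotypes than for any other of the 5 genes. In limma the step was log2 0.66 (SE 0.15; unadjusted p = 0.0104, adjusted p = 0.854). The gene was lower in ZnF1 than in wt in both fractions, by 1.34-fold in C and 1.41-fold in B, and it was higher in ZnF4 than in wt, by 1.14-fold in C and 1.2-fold in B. Between the mutants the limma estimate, ZnF4 over ZnF1, was log2 0.68 (SE 0.19; adjusted p = 0.142). With 1 library of ZnF1 left, it was log2 0.74 (fraction C left out) and 0.63 (fraction B left out). Over all alternatives the estimate ran from log2 -0.15 to 0.94. Scaled on B-lineage genes, Cd24a turned direction in ZnF4 over wt in both fractions and in ZnF1 over wt and ZnF4 over ZnF1 in fraction C.

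**Figure D3:**
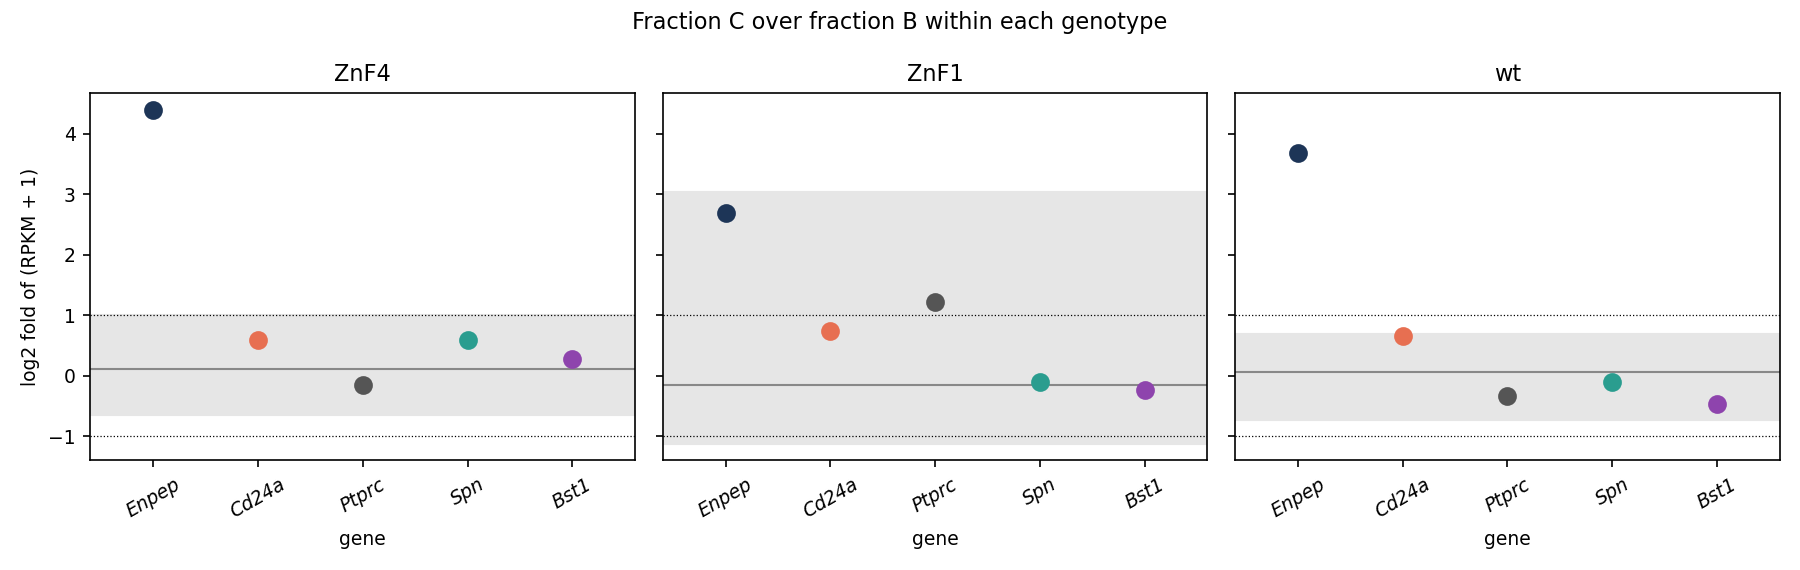
Log2 fold of (RPKM + 1), fraction C over fraction B, for the 5 genes in ZnF4, ZnF1 and wt. The grey band holds 95% of all 10943 genes, the grey line is their median and dotted lines mark 2-fold. Enpep lies above the band in ZnF4 and wt and inside the wide band of ZnF1 (-1.12 to 3.03).

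Ptprc, the gene of CD45, was even across 5 libraries and high in 1. It stood at 83.3 RPKM in fraction C and 92.9 in fraction B of ZnF4, at 162.8 in fraction C and 69.0 in fraction B of ZnF1, and at 67.0 in fraction C and 85.2 in fraction B of wt. The ZnF1 library of fraction C, which held the granulocyte and erythroid RNA, was 2.41-fold above wt of that fraction and 2.34-fold above its own fraction B. CD45 is carried by nearly all nucleated blood cells, granulocytes and monocytes included, and their part in this value was not tested. Rescaled to a common RPKM total, both folds came to just under 2 (log2 0.96). In the other genotypes fraction C was the lower one, by 1.11-fold in ZnF4 (higher when scaled on B-lineage genes, log2 0.16) and 1.27-fold in wt. The limma step from B to C was log2 0.24 (SE 0.36; adjusted p = 0.902). For ZnF1 against wt the limma estimate was 0.48 (SE 0.44; adjusted p = 0.634). It was log2 1.22 without the fraction B library of ZnF1 and -0.25 without that of fraction C. ZnF4 against ZnF1 was likewise at log2 -1.0 without the fraction B library of ZnF1 and at 0.47 without that of fraction C. Each fit with a ZnF1 library left out has 1 library of ZnF1, so no p-value is given for it. Over all alternatives ZnF1 against wt ran from log2 -0.25 to 1.22, and ZnF4 against ZnF1 from -1.1 to 0.47.

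Spn, the gene of CD43, was listed with 2 transcripts of 3739 and 1478 bases, and the longer had the higher mean. That transcript stood at 75.5 RPKM in fraction C and 49.9 in fraction B of ZnF4, at 102.2 and 110.1 in those fractions of ZnF1, and at 76.1 and 82.3 in those of wt. The order of the genotypes was the same in both fractions, with ZnF1 highest and ZnF4 lowest, although ZnF4 and wt were within 1.01-fold of each other in fraction C and changed places on a common RPKM total. The shorter transcript kept that order, at 59.3 RPKM in ZnF4, 80.4 in ZnF1 and 72.9 in wt in fraction C, and at 40.8, 94.5 and 80.5 in fraction B. From B to C, Spn was 1.5-fold higher in ZnF4 and 1.08-fold lower in both ZnF1 and wt, where scaling on B-lineage genes turned the direction (log2 1.0 in ZnF1, 0.11 in wt), as did median of ratios in ZnF1 (0.07). Between the mutants, ZnF4 was 1.35-fold lower than ZnF1 in fraction C and 2.18-fold lower in fraction B, where the fold was under 2 on a common RPKM total (log2 -0.95) and on median of ratios (-0.98). The limma estimate over both fractions was log2 -0.78 (SE 0.25; unadjusted p = 0.0314, adjusted p = 0.179). Under the scaling on B-lineage genes that difference was log2 -1.6 with an adjusted p of 0.0415 in limma, the lowest of its alternatives, which ran up to 0.816. The pseudogene Spn-ps was listed at 0 in all 6 libraries.

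Bst1, the gene of BP-3, was low in both ZnF4 libraries. It stood at 27.7 RPKM in ZnF4, 63.2 in ZnF1 and 48.9 in wt in fraction C, and at 22.8 RPKM in ZnF4, 75.0 in ZnF1 and 67.9 in wt in fraction B. The ZnF4 libraries did not overlap with the other 4, an order whose share over all genes was not counted. ZnF4 was 1.74-fold lower than wt in fraction C and 2.89-fold lower in fraction B, and it was lower than ZnF1 by 2.24-fold in fraction C (under 2-fold on a common RPKM total, log2 -0.83) and by 3.19-fold in fraction B. In limma the estimate was log2 -1.17 (SE 0.24; unadjusted p = 0.00588, adjusted p = 0.142) for ZnF4 against wt and -1.42 (SE 0.24; adjusted p = 0.0665) for ZnF4 against ZnF1. With either ZnF1 library left out, ZnF4 against wt was at log2 -1.17 by construction, because ZnF1 libraries do not enter that estimate, so this is no check of it. ZnF4 against ZnF1 was then at log2 -1.49 (fraction C left out) and -1.345 (fraction B left out). These fits leave 1 library of ZnF1, so no p-value is given for them. Over all alternatives ZnF4 against wt ran from log2 -1.7 to -0.85, and ZnF4 against ZnF1 from -2.23 to -1.11. From B to C, Bst1 was 1.21-fold higher in ZnF4, 1.18-fold lower in ZnF1 (higher when scaled on B-lineage genes, log2 0.86) and 1.38-fold lower in wt.

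Summed markers of other cells that can carry BP-3 were also lower in ZnF4 than in wt in both fractions. Granulocyte and monocyte markers summed to 1799.0 RPKM in ZnF4 and 2763.5 in wt in fraction C. In fraction B they summed to 1045.6 in ZnF4 and 3924.3 in wt. Of 17 past the filter on low values, 6 were at least 2-fold lower in ZnF4 in fraction C and 17 in fraction B. The shares of all genes were 6.12% and 9.81%. Of 11 stroma markers, 4 were listed at 0 in ZnF4, 4 in ZnF1 and 0 in wt in fraction B. In fraction C these were 2, 1 and 1. Stroma markers summed to 8.6 RPKM in ZnF4 and 19.1 in wt in fraction C, and to 4.8 and 11.6 in fraction B. In ZnF1 that sum was above wt in fraction C and below it in fraction B. Of 7 past the filter, 5 were lower and 2 higher in ZnF4 than in wt in fraction C. The 2 were Cxcl12 (3.9 RPKM in ZnF4, 1.8 in wt) and Cdh5 (2.1 and 0.7). In fraction B, 6 were lower and 1 higher. Col1a1, Col1a2 and Sparc were at least 2-fold below wt in both fractions, in ZnF1 as well as in ZnF4. The ZnF1 library of fraction B held 1705.0 RPKM of granulocyte and monocyte markers, below wt, with Bst1 at 75.0 RPKM, above wt as deposited and log2 -0.02 from it when scaled on B-lineage genes. The ZnF1 library of fraction C held 44136.3 RPKM of those markers, with Bst1 at 63.2 RPKM. The part of such cells in the ZnF4 values was not tested.

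**Figure D4:**
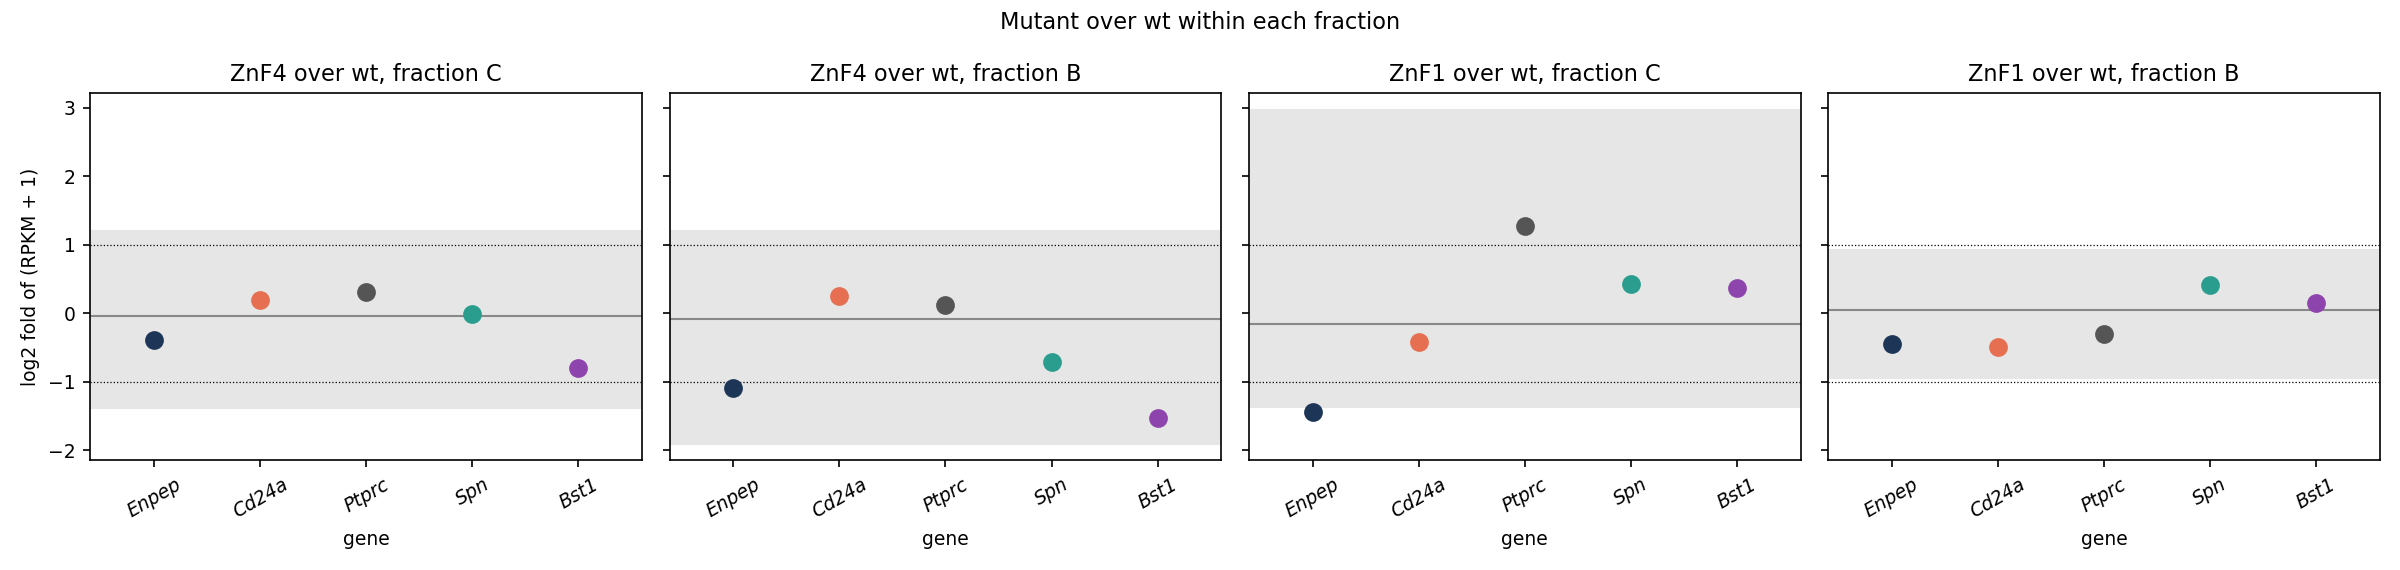
Log2 fold of (RPKM + 1), mutant over wt, for the 5 genes in each fraction, with the band that holds 95% of all 10943 genes in grey, their median as a line and 2-fold dotted. Enpep in ZnF1 over wt in fraction C lies just under the band (-1.37 to 2.96), and Bst1 is below 0 in both ZnF4 panels.

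Of the 5 genes, at most 2 were at least 2-fold apart in the same direction in any of the 9 pairs of libraries compared, which shared a genotype or a fraction. From B to C, 1 gene was at least 2-fold higher in ZnF4, 2 in ZnF1 and 1 in wt, against 2.76%, 10.1% and 0.338% of all genes. In those genotypes 0 were at least 2-fold lower, against 0.585%, 4.16% and 1.01% of all genes. In ZnF4 over wt, 2 were at least 2-fold lower in fraction B (Enpep and Bst1; 9.81% of all genes) and 0 higher (3.7%), and in fraction C 0 were lower (6.12%) or higher (3.55%). In ZnF1 over wt, 1 was higher (Ptprc; 12.6% of all genes) and 1 lower (Enpep; 7.39%) in fraction C, and in fraction B 0 were higher (2.07%) or lower (2.21%). In ZnF4 over ZnF1, 2 were lower in fraction B (Spn and Bst1; 10.9% of all genes) and 0 higher (4.95%), and in fraction C 1 was higher (Enpep; 7.41%) and 1 lower (Bst1; 14.1%). Bst1 met the 2-fold mark downward for ZnF4 over ZnF1 in both fractions, as did 5.45% of all genes, but on a common RPKM total it met it in fraction B alone. For genotype, 0 of the 5 passed the adjusted limma threshold, against 3 genes (0.0274%) for ZnF4 against wt, 3 (0.0274%) for ZnF1 against wt and 199 (1.82%) for ZnF4 against ZnF1. All these comparisons share libraries, so their results are not independent.

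By variation over the 6 libraries (the SD of log2(RPKM + 1)), Enpep ranked 29 of 10943 genes with an SD of 2.05. Larger SDs than that of Bst1 (0.7) were found in 15.3% of genes, than Cd24a (0.48) in 29.4%, than Ptprc (0.46) in 31.3% and than Spn (0.4) in 39.0%. The highest library was 51.5 times the lowest for Enpep and 2.21 to 3.29 times for the other 4. Among 8223 genes averaging 5 RPKM or more, likeness was measured as the root mean square difference of log2 values, each gene centred on its own mean over the 6 libraries. The gene nearest to Ptprc was C030046I01Rik (0.074), ahead of Arrdc3 (0.091) and Foxo3 (0.095). For Spn it was Gltp (0.065), and the kinase Mapkapk2 (0.098) was also among the nearest 5. For Bst1 it was the sterol demethylase Cyp51 (0.152), ahead of Crlf3 (0.157) and Klf10 (0.173). For Cd24a it was Snord37 (0.158), ahead of Klhdc2 (0.175) and Decr1 (0.193). Enpep had no near match, the closest being Snord45b at 1.31 and Adap1 at 1.35, and of the other 4 members Cd24a was closest to it at 1.56.

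Among enzyme relatives of Enpep and Bst1, counts from B to C were small. Of 15 listed ectopeptidases and NAD-consuming enzymes, 9 passed the filter, and from B to C 0 were at least 2-fold higher in ZnF4, 1 in ZnF1 and 0 in wt (2.76%, 10.1% and 0.338% of all genes), and 0, 0 and 1 were lower in those genotypes (0.585%, 4.16% and 1.01%). Their median log2 fold was 0.142 in ZnF4 (0.11 over all genes), -0.124 in ZnF1 (-0.158) and -0.068 in wt (0.057). Anpep, the aminopeptidase N gene, and Mme (CD10) were at 0.4 RPKM or less in every library. Cd38, the closest relative of Bst1, stood at 45.0 RPKM in ZnF4, 9.1 in ZnF1 and 16.6 in wt in fraction C, and at 67.3, 12.7 and 36.6 in fraction B. In both fractions Cd38 was thus highest in ZnF4, where Bst1 was lowest. Dpp4, the CD26 peptidase, was at 25.0 RPKM in ZnF1 and 78.9 in wt in fraction C and at 33.3 and 73.6 in fraction B, 2-fold or more below wt in both, as were 0.804% of all genes.

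Among 17 genes past the filter for partners, splicing factors and substrates of CD45, ZnF4 was at least 2-fold above wt in both fractions for 2, Ptprcap among them, and below it for 3, Fgr, Ptpn22 and Lgals3, against 2.59% and 4.73% of all genes. Fgr and Lgals3 were highest in the fraction C library of ZnF1, at 68.3 and 121.9 RPKM, and within each fraction lowest in ZnF4, as the summed granulocyte and monocyte markers were, whose part was not tested. Ptprcap, which encodes a CD45-associated protein, stood at 481.9 RPKM in ZnF4, 184.8 in ZnF1 and 236.8 in wt in fraction C, and at 529.8, 578.4 and 208.4 in fraction B. It therefore differed from wt by 2-fold or more in 3 of 4 mutant libraries, while Ptprc did so in 1. Lyn, a Src family kinase that CD45 acts on, stood at 82.7 RPKM in ZnF4, 72.3 in ZnF1 and 41.5 in wt in fraction C, and at 96.9, 54.4 and 50.1 in fraction B. Of the other receptor-type phosphatases, Ptprj, which acts on Src kinases as CD45 does, was at 28.1 RPKM in ZnF4 and 10.9 in wt in fraction C, and at 40.3 in ZnF4 and 15.2 in wt in fraction B.

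For CD43, the listed glycosyltransferases and cytoskeletal linkers had median log2 folds from B to C of 0.011 in ZnF4 (0.11 over all genes), -0.021 in ZnF1 (-0.158) and -0.267 in wt (0.057). St3gal1, which sialylates core O-glycans, was at 21.6 RPKM in ZnF4 and 10.1 in wt in fraction C, and at 37.2 in ZnF4 and 17.7 in wt in fraction B. In the ZnF1 library of fraction C, 7 of 15 were at least 2-fold above wt (12.6% of all genes), with the largest folds for Cd34 and Cmas, and this is the library with the granulocyte RNA, whose part was not tested. For CD24, its lectin partner Siglecg stood at 289.1 RPKM in ZnF4, 69.5 in ZnF1 and 110.2 in wt in fraction C, and at 399.3, 107.4 and 152.0 in fraction B. Pigk, a subunit of the transamidase that attaches the GPI anchors of proteins such as CD24 and BP-3, was at 9.5 RPKM in fraction C and 9.9 in fraction B of ZnF4 and at 7.9 and 7.5 in those of wt.

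Of 25 other surface markers of B-cell stages past the filter, 1 was at least 2-fold higher in fraction C in ZnF4, 4 in ZnF1 and 0 in wt (2.76%, 10.1% and 0.338% of all genes). At least 2-fold lower were 3 in ZnF4, 10 in ZnF1 and 7 in wt (0.585%, 4.16% and 1.01% of all genes), with median log2 folds of -0.139, -0.811 and -0.328 (0.11, -0.158 and 0.057 over all genes). In the ZnF1 pair 9 of 10 B-lineage markers were also at least 2-fold lower and 17 of 17 granulocyte and monocyte markers at least 2-fold higher in fraction C, and their part in the counts of ZnF1 was not tested. Ly6d, a GPI-anchored marker of B-lineage commitment, was at 143.4 RPKM in fraction C and 277.4 in fraction B of ZnF4, at 91.2 and 264.0 in those of ZnF1, and at 46.7 and 233.7 in those of wt. Il2ra, the IL-2 receptor chain of later preB cells, was at 4.7 RPKM in fraction C and 12.1 in fraction B of ZnF4, at 3.7 and 5.3 in those of ZnF1, and at 6.4 and 24.5 in those of wt. Of 18 listed stage genes other than the 5, 6 were at least 2-fold higher in fraction C in ZnF4, 0 in ZnF1 and 1 in wt (2.76%, 10.1% and 0.338% of all genes). At least 2-fold lower were 1, 10 and 2 in those genotypes (0.585%, 4.16% and 1.01%). The 10 in ZnF1 come from that same pair of libraries. Rag1, a recombinase subunit, was lower in fraction C in each genotype, at 67.5 RPKM in fraction C and 120.1 in fraction B of ZnF4, 109.3 and 344.1 in those of ZnF1, and 94.8 and 225.5 in those of wt. Ccnd2, a G1 cyclin, was at 61.2 RPKM in fraction C and 25.1 in fraction B of ZnF4, 18.1 and 16.7 in those of ZnF1, and 81.6 and 36.7 in those of wt. Between genotypes, Dntt, the gene of the nucleotide-adding enzyme TdT, stood at 25.7 RPKM in ZnF4, 281.2 in ZnF1 and 335.4 in wt in fraction C, and at 18.7, 739.4 and 568.7 in fraction B, so that it was low in both ZnF4 libraries, as Bst1 was.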

How the data were processed

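Per the labels' protocols, total RNA of sorted proB cells went into 6 Illumina TruSeq libraries. The deposited values are RPKM per RefSeq transcript, computed by the authors and rounded to 0.1, per the file headers. Per the submitters' processing notes, TopHat and bedtools were used with build mm9; no source used here gives their versions, the strand, the read denominator or the treatment of shared reads. Depth is unknown: whole reads could not be recovered (low values of transcripts of 60 to 130 bases were whole only 6.3 to 11.4 percentage points more often than by chance), so no counting interval is given.

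Of 26532 rows, 1 had no gene name and was left out, and 0 columns belonged to other samples. Each symbol was represented by its transcript with the highest mean. The 10943 genes averaging 1 RPKM or more were kept. Folds are differences of log2(RPKM + 1), which understate changes of low genes, with 2-fold as the mark. limma 3.58.1 (R 4.3.3; lmFit, eBayes with trend, two-sided) used genotype and fraction as additive terms over all 6 libraries, with Benjamini-Hochberg adjustment over all genes, and was tested on simulated data. Its p-values measure only the spread between these libraries. For genotype comparisons the 2 fractions of each genotype stand in as replicates, so that spread is how genotype differences vary between fractions. The members and all lists were chosen with earlier results of these data known. Genes named are the members, the genes nearest to each by likeness, and from each list up to 2 with the largest and 2 with the smallest fold per comparison, those 2-fold apart in both fractions or all genotypes, and relatives averaging 1 RPKM or more. Which of these are described, Anpep and Mme, and the motifs marked by capitals were chosen after their values were seen. Some genes that this rule selects are not reported here. Hnrnpll and Ahsp were not in the table under those names. Alternatives were another pseudocount, 3 rescalings, no filter, transcript means, leaving out each library, and no genotype term.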

Additional observations from a re-analysis of the deposited data

Results flagged for a closer look

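In 9 results a pair of genotypes or of fractions went in opposite directions. Opposite signs were flagged whatever their size, and their share over all genes was not counted. Each rests on 1 library a side, and the difference was not tested. For Ptprc, the log2 step from B to C was 1.23 in ZnF1, against -0.16 in ZnF4 and -0.34 in wt, differences of -1.38 (ZnF4 minus ZnF1) and 1.57 (ZnF1 minus wt). For the same gene, ZnF1 over wt was 1.27 in fraction C and -0.3 in fraction B (a difference of 1.57), and ZnF4 over ZnF1 was -0.96 in fraction C and 0.42 in fraction B (-1.38). The ZnF1 library of fraction C entered each of these 4 and held the granulocyte and erythroid RNA, whose part was not tested. For Spn, the step was 0.59 in ZnF4 and -0.11 in both ZnF1 and wt (differences of 0.69 and 0.7). For Bst1, the step was 0.27 in ZnF4, -0.24 in ZnF1 and -0.47 in wt (differences of 0.51 and 0.74). For Enpep, ZnF4 over ZnF1 was 1.06 in fraction C and -0.65 in fraction B (a difference of 1.71). Scaled on B-lineage genes, the sign turned for the step of Ptprc in ZnF4 (0.16), Ptprc in ZnF4 over ZnF1 in fraction B (-0.01), the steps of Spn in ZnF1 (1.0) and wt (0.11), the step of Bst1 in ZnF1 (0.86) and Enpep in ZnF4 over ZnF1 in fraction C (-0.14), so those opposite directions were lost.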

How the results depend on the processing

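Of 225 recomputed folds of the 5 genes, 198 kept their side of 2-fold and moved by less than 1.5-fold, and 1 turned round from past 2-fold, Enpep in ZnF4 over ZnF1 in fraction C (log2 -0.138 scaled on B-lineage genes). That scaling shifts the median of all genes by -1.13 to 1.02, against -0.268 to 0.295 for a common total and -0.157 to 0.161 for median of ratios. The step of Enpep was log2 5.0 in ZnF4 with a pseudocount of 0.25 and 3.71 in ZnF1 scaled on B-lineage genes. Genes at least 2-fold apart from B to C numbered 366 in ZnF4, 643 with a pseudocount of 0.25 and 717 scaled on B-lineage genes, 148 and 285 with a pseudocount of 0.25 in wt, and 1556 and 4272 scaled on B-lineage genes in ZnF1. Under that scaling they were 2710 (1479 as deposited) and 1942 (1058) for ZnF4 over wt in fractions B and C, and 5664 (2359) for ZnF4 over ZnF1 in fraction C. limma calls without the filter were 11 for C against B (0 with it), 102 for ZnF1 against wt, 132 for ZnF4 against wt and 97 for ZnF4 against ZnF1. Scaled on B-lineage genes they were 0, 0 and 2178 for those 3 genotype comparisons, and for ZnF4 against wt 5 with a pseudocount of 0.25 or median of ratios. Leaving out 1 library gave 0 to 4116 calls for ZnF1 against wt, 0 to 3453 for ZnF4 against wt, 0 to 4109 for ZnF4 against ZnF1 and 0 for C against B; the lone library left is then assumed to vary like the others. Spn and Bst1 in ZnF4 against ZnF1 passed in limma when scaled on B-lineage genes (adjusted p = 0.0415 and 0.0391). Other passes of the 5 genes came only from fits that left 1 library of ZnF1, and no p-value is given for those. The cause of these shifts was not tested. No pairing by animal was possible because the labels give no replicate numbers. The limma fit pairs C with B by genotype only. Depth is unknown, so the counting error of low values, such as Enpep in fraction B, cannot be stated.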
